A study of Mus musculus with 3 samples.

Results

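The comparison was between 1 ribosome profiling library from mouse primary cortical neurons given cycloheximide before harvest (Chx) and 1 library from neurons given nothing (WT), 2 of the 3 libraries of this kind in the series. The cultures came from cortices of CD-1 mouse embryos. Chx neurons received cycloheximide at 100 µg/ml for 2 min, and each library pooled 3 dishes. Both libraries met cycloheximide at 100 µg/ml later, in the rinse and lysis buffers, so that WT neurons lacked only the exposure of the living cells. Lysates of both were digested with micrococcal nuclease, and monosomes were collected from sucrose gradients. The description labels conflict with the titles and treatment labels: they call both libraries input of dep neurons, the study's name for KCl-depolarized ones, with Chx from a cytosol and WT from a psd region. Groups follow the treatment labels, and whether the descriptions apply could not be settled. Genes entered when their longest transcript had a 5′ UTR, a coding sequence (CDS) and a 3′ UTR in the tables and at least 100 CDS reads over both libraries, which left 11312 of 20823 genes. With 1 library per side there is no replicate error and no p-value, and every interval covers counting error or the spread over genes only.

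Ribosome profiling sequences the stretch of mRNA that a ribosome shields from nuclease, so the read count over a CDS reports how many ribosomes sat on it. Cycloheximide binds the large subunit of the cytosolic ribosome and blocks translocation. Ribosomes that are elongating stop where they are, while initiation can go on for a time, and mitochondrial ribosomes do not respond to the drug. Added before harvest, it fixes ribosomes in the living cell. Without it, elongation and termination can continue until the cell is chilled and lysed.

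Reads on the CDSs of the 20823 genes numbered 20212047 in Chx and 16673134 in WT, of 35722483 and 30219197 aligned reads in all. Levels below are log2 ratios of RPM, the reads of a CDS scaled to the CDS reads of its library, Chx to WT, with a pseudocount of 0.5 and a counting standard error (SE). Neuron markers dominated both libraries. The 8 neuron markers summed to 7353 RPM in Chx and 7636 in WT, the 4 astrocyte markers to 345 and 386, the 4 endothelial and stromal markers to 21.03 and 23.9, the 4 oligodendrocyte markers to 11.5 and 10.4, and the 4 microglia markers to 4.95 and 4.86. All 8 neuron markers and all 4 astrocyte markers passed 100 reads, whereas Mog and Mobp were at 0 in both libraries. In bulk lysates, fewer cells of a type and less ribosome-bound RNA per cell cannot be told apart.

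Most CDSs had nearly the same share of reads in both libraries. Over the 11312 genes the median log2 ratio was 0.03 (95% interval 0.03 to 0.04) with an SD of 0.27 over genes. At 1.5-fold, 217 genes were higher in Chx, 1.92% of those compared, and 173 were lower, 1.53%. The 129 genes with 100 to 109 reads, just inside the read minimum, had a median of 0.01, and the 132 genes with 90 to 99 reads, just outside, had a median of -0.02. The ratio moved slightly with CDS length: its median was -0.09 over the 1327 CDSs of 301 to 600 nt and 0.09 over the 825 CDSs longer than 4000 nt.

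Immediate early genes (IEGs), which neurons transcribe within minutes of activity, stood farthest above this background. Of the 26 on the list 25 passed the read minimum. Their median log2 ratio was 0.52 (0.31 to 0.64), 24 of the 25 were above 0 against 54.9% of all genes, 10 were at least 1.5-fold higher in Chx against 1.92%, and none was 1.5-fold lower. Against genes of the same CDS length class the median was 0.51 higher. For 23 of the 25 the counting interval lay above 0. The description labels name dep neurons for both libraries, and the part of any depolarization in these values was not tested.

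Among the transcription factors, the zinc finger gene Egr4 had 1246 Chx and 505 WT reads, a log2 ratio of 1.02 ± 0.08 (counting SE). Egr2 had 318 and 131 reads (1.00 ± 0.15), Egr3 had 279 and 141 (0.70 ± 0.15) and Egr1 had 1816 and 979 (0.61 ± 0.06). All 4 Egr genes were thus higher in Chx. The orphan nuclear receptors were not alike. Nr4a1 had 2707 Chx and 1191 WT reads (0.91 ± 0.05), Nr4a2 had 3347 and 1824 (0.60 ± 0.04), and Nr4a3 had 11431 and 8398 (0.17 ± 0.02), so that the counting intervals of Nr4a1 and Nr4a3 did not meet.

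The AP-1 genes, whose products pair to bind DNA, also spread over a range. Junb had 2820 and 1469 reads in Chx and WT (0.66 ± 0.05), Fosb 3367 and 1785 (0.64 ± 0.04), Jund 5374 and 2971 (0.58 ± 0.03) and Fos 12450 and 7175 (0.52 ± 0.02). Fosl2, with 10215 and 7411 reads, stood at 0.19 ± 0.02, and Jun, with 2690 and 2039, at 0.12 ± 0.04. The family therefore held both genes near 1.5-fold and genes near the median of all genes. Npas4, a factor that neurons induce on calcium entry, had 4100 Chx and 2072 WT reads (0.71 ± 0.04). Atf3, a stress-inducible factor, had 361 and 200 (0.57 ± 0.13), and the small Maf factor Maff had 794 and 499 (0.39 ± 0.08).

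Effector IEGs ranged just as widely. Arc, a capsid-forming postsynaptic protein, had 415 Chx and 165 WT reads and the highest ratio of the list (1.05 ± 0.13). The phosphatase gene Dusp1 had 2423 and 1541 (0.38 ± 0.05), and the neurotrophin gene Bdnf had 4491 and 2986 (0.31 ± 0.03). Gadd45b, a stress sensor gene, had 281 and 174 (0.41 ± 0.14), while its relative Gadd45g had 1427 and 1022 (0.20 ± 0.06). Homer1, a scaffold gene of the postsynaptic density, had 837 and 603 (0.20 ± 0.08), Ier5 had 1154 and 666 (0.51 ± 0.07) and Ier2 had 820 and 643 (0.07 ± 0.08). Btg2, an antiproliferative gene, was the exception with 360 Chx and 314 WT reads, a ratio of -0.08 ± 0.11 whose interval spans 0.

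**Figure D1:**
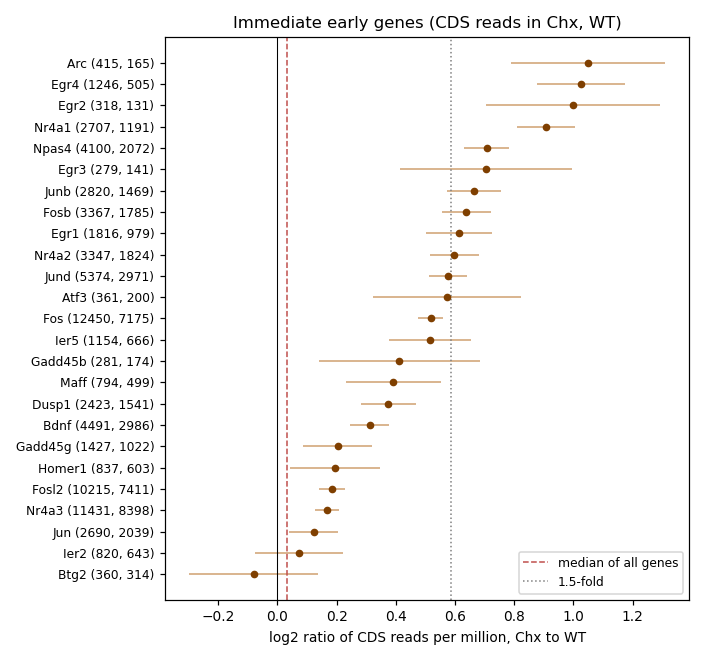
Log2 ratio of CDS RPM, Chx to WT, of the 25 immediate early genes with at least 100 reads (x axis), with raw CDS reads in Chx and WT beside each name; points are the ratios, bars are 95% counting intervals, the dashed line is the median of all genes and the dotted line marks 1.5-fold. The 24 genes from Arc (1.05) down to Ier2 (0.07) lie right of 0 and Btg2 (-0.08) lies left of it.

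The 5′ UTRs of the IEGs did not stand above those of other genes. Their median log2 odds ratio against CDS reads was 0.41 (0.18 to 0.71) over 25 genes, an interval that holds the 0.67 of all genes. Of the 25, 20 were above 0 against 81.4% of all genes, none was 1.5-fold lower, and 8 (against 54.6% of all genes) were at least 1.5-fold higher in Chx. Against UTRs of the same length class the median was -0.25. Jun, which had 1184 Chx and 343 WT reads in its 5′ UTR, stood at 1.39 on this scale, and Egr1, with 355 and 75, at 1.34. Maff, with 99 and 88 reads, stood at -0.50 and Egr3, with 80 and 55, at -0.45. Jun thus had one of the lower CDS ratios and one of the higher 5′ UTR ratios. Btg2, lowest of the list by CDS ratio, had the highest 5′ UTR ratio, 1.59 ± 0.46 from 46 Chx and 13 WT reads. CDS reads are the denominator of the 5′ UTR ratio, so a low CDS ratio by itself raises it.

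Targets of ATF4, the transcription factor of the integrated stress response, were the next class above the background. Their median log2 ratio was 0.25 (0.20 to 0.34) over 22 genes, 21 of which were above 0 against 54.9% of all genes. Sesn2, a regulator of mTORC1, had 2389 Chx and 1203 WT reads over the CDS (0.71 ± 0.05) and was the only member past 1.5-fold, where 1.92% of all genes were higher. Atf5, a bZIP factor gene, had 1086 and 1192 reads (-0.41 ± 0.06) and was the only member below 0. The other 20 members lay above 0 and below 1.5-fold.

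Axon guidance genes (semaphorins, plexins, ephrins and their receptors, netrin and Slit receptors) had a median of 0.24 (0.17 to 0.31) over 57 genes, with 50 above 0 against 54.9% of all genes and 3 past 1.5-fold, all higher in Chx, against 1.92%. These were the semaphorin receptor gene Plxnd1, with 1455 Chx and 762 WT reads (0.66 ± 0.06), and the Eph receptor genes Ephb3, with 184 and 99 (0.61 ± 0.18), and Epha8, with 95 and 51 (0.61 ± 0.25). Robo2, a Slit receptor gene, had 13315 and 14086 reads and the lowest ratio of the class (-0.36 ± 0.02). These CDSs are long, and against genes of the same CDS length class the median was 0.16 higher.

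Other classes of neuronal surface and channel genes had smaller medians. Clustered protocadherins, which label single neurons by combinatorial adhesion, had a median of 0.15 (0.10 to 0.18) over 54 genes, 45 above 0 against 54.9% of all genes and none past 1.5-fold in either direction, against 1.92% higher and 1.53% lower. All 54 share more than 10% of their 25-nt words with another gene, so reads may have been assigned among family members. Potassium channels stood at 0.14 over 60 genes, and sodium, calcium and HCN channels at 0.13 over 33. Ionotropic glutamate and GABA-A receptors stood at 0.03 over 26 genes, 14 of them above 0. Kcnt1, a sodium-activated potassium channel gene, had 134 and 76 reads in Chx and WT (0.54 ± 0.21), and Cacna1g, a T-type calcium channel gene, had 275 and 146 (0.63 ± 0.15). Cholesterol synthesis enzymes stood at 0.17 over 22 genes and postsynaptic density proteins at 0.10 over 29. Against genes of the same CDS length class these values were smaller, with 0.0789 for protocadherins, 0.0786 for potassium channels, 0.0556 for sodium, calcium and HCN channels, 0.0226 for postsynaptic density proteins, 0.0974 for cholesterol synthesis enzymes and -0.0326 for the ionotropic receptors. Within the synaptic vesicle and active zone class the median was -0.06 over 36 genes and 0.06 over its members with at least 1000 reads, and its highest member was the vesicular glutamate transporter gene Slc17a7, with 1125 and 552 reads (0.75 ± 0.07).

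At the other end, histones had a median of -0.28 (-0.38 to -0.16) over 63 genes, 52 of them below 0 against 45.1% of all genes. Of the 63, 5 were at least 1.5-fold lower in Chx against 1.53% of all genes. Hist1h2bq had 1144 Chx and 2207 WT reads (-1.23 ± 0.05), but all of its 25-nt words occur in other genes. Of the 63 histone genes 57 shared more than 10% of their words, and the other 6 had a median of -0.04 with an interval of -0.38 to 0.17. The part of shared sequence in the value of the class was not tested.

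SR and hnRNP splicing regulators had a median of -0.20 (-0.29 to -0.19) over 32 genes with 27 below 0 against 45.1% of all genes. None passed 1.5-fold, where 1.92% of all genes were higher and 1.53% lower. Srsf2, which binds exonic enhancers, had 3829 and 4267 reads in Chx and WT (-0.43 ± 0.03), and Hnrnpa0 had 7863 and 5542 (0.23 ± 0.03). The class kept a median of -0.19 over its members with little shared sequence.

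Genes of astrocytes and radial glia had a median of -0.16 (-0.26 to -0.04) over 28 genes, 23 below 0 against 45.1% of all genes, and 4 were at least 1.5-fold lower in Chx against 1.53%. These were Scrg1, with 84 Chx and 181 WT reads (-1.38 ± 0.19), the metallothionein gene Mt3, with 1450 and 1865 (-0.64 ± 0.05), Hes5, a Notch target gene, with 132 and 164 (-0.59 ± 0.17), and Id3, an inhibitor of bHLH factors, with 159 and 197 (-0.59 ± 0.15). Metrn, a neurotrophic factor gene of the same list, went the other way with 308 Chx and 99 WT reads (1.35 ± 0.17). The summed astrocyte markers, which overlap this list, had 345 RPM in Chx and 386 RPM in WT. All 4 were below 0, but only 1 was lower beyond its counting interval. Among them, Slc1a3 had 193 RPM in Chx and 228 in WT, and Aldh1l1 had 132 and 136. The part of astrocyte number in the class median was not tested.

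The 3 metallothioneins measured, small metal-binding proteins with very short CDSs, were all below 0. Mt2 had 2550 Chx and 2483 WT reads (-0.24 ± 0.04), Mt3 is given above, and Mt1 had 68 and 146 (-1.37 ± 0.21), or -0.58 on its most-read transcript. Ribosomal proteins stood at -0.10 over 79 genes with 2 higher and 7 lower at 1.5-fold, against 1.92% and 1.53% of all genes, but 78 of the 79 share more than 10% of their words with other genes. Nuclear-encoded subunits of oxidative phosphorylation (OXPHOS) stood at -0.11 (-0.20 to -0.05) over 78 genes, with 55 below 0 against 45.1% of all genes, but the 40 with little shared sequence stood at -0.038 with an interval that spans 0. Against genes of the same CDS length class ribosomal proteins stood at -0.0351 and OXPHOS subunits at -0.0641. The 13 mitochondrially encoded genes, read by ribosomes that cycloheximide does not stop, had a median of -0.12 (-0.21 to -0.05). Of these, mt-Atp8 had 178 Chx and 259 WT reads (-0.82 ± 0.14) and was the only one past 1.5-fold, where 1.53% of the 11312 genes were lower.

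**Figure D2:**
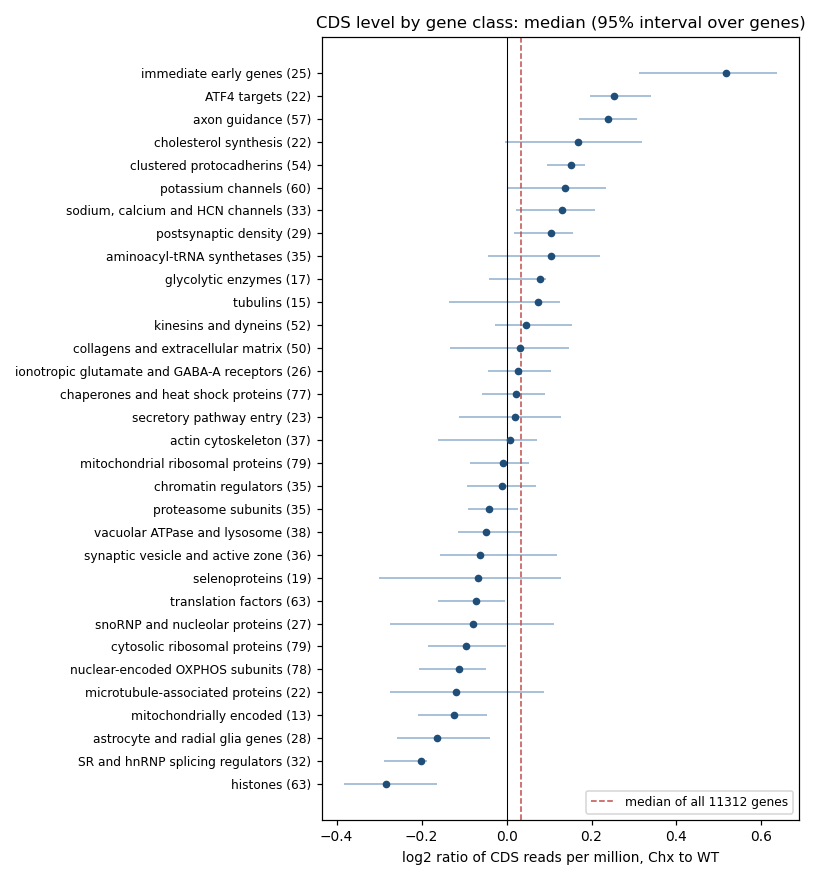
Median log2 ratio of CDS RPM, Chx to WT, for each gene class with more than 3 genes measured (points, number of genes in parentheses) with the 95% interval over its genes (bars); the dashed line is the median of all 11312 genes. Immediate early genes (0.52), ATF4 targets (0.25) and axon guidance genes (0.24) lie highest, and histones (-0.28) and SR and hnRNP splicing regulators (-0.20) lowest.

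The single genes with the highest and lowest CDS ratios did not form a class. Among genes with at least 200 reads, the highest were the sodium pump gene Atp1a4, with 803 Chx and 240 WT reads (1.46 ± 0.11), Metrn, the signal recognition particle gene Srp19, with 209 and 68 (1.34 ± 0.20), the vesicle coat receptor gene Tmed2, with 1356 and 451 (1.31 ± 0.08), the membrane raft gene Flot2, with 485 and 175 (1.19 ± 0.13), the actin-associated gene Pdlim7, with 255 and 94 (1.16 ± 0.17), the chaperone-complex gene Pdrg1, with 517 and 191 (1.16 ± 0.12), and the tubulin cofactor gene Tbca, with 550 and 204 (1.15 ± 0.12). Many of these ratios came from 1 segment or 1 transcript model. In Atp1a4 a single segment of 202 nt among 22 held 782 of the Chx reads and 231 of the WT reads, and the other 21 and 9 reads gave 0.90 with an interval of -0.20 to 2.00. On the transcript with the most reads Srp19 stood at 0.24, Pdlim7 at 0.39, Pdrg1 at 0.09, Tbca at -0.23 and Flot2 at 0.62, while Atp1a4 (1.46), Metrn (1.35) and Tmed2 (1.31) kept their values. Without their first segments, which held the most reads, Tmed2 stood at 0.43 (0.21 to 0.66) and Flot2 at 0.49 (0.18 to 0.79). Nearly all words of Tmed2 (99.8%) occur in other genes.

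The lowest ratios were those of Selenow, Scrg1, Mt1 and Hist1h2bq, followed by Oard1, an ADP-ribosyl hydrolase gene, with 80 Chx and 152 WT reads (-1.20 ± 0.20), the calmodulin-binding peptide gene Pcp4l1, with 195 and 358 (-1.15 ± 0.13), the mitochondrial ribosomal protein gene Mrpl42, with 134 and 229 (-1.05 ± 0.16), and Tcim, with 357 and 590 (-1.0 ± 0.10). Mrpl42 shares 67.1% of its words with other genes. At the low end, Selenow, Scrg1, Oard1, Pcp4l1 and Tcim kept ratios between -1.43 and -1.0 on the most-read transcript and shared no words with other genes. Their CDSs were short, from 207 nt in Pcp4l1 to 459 nt in Oard1. Single segments held many of the reads here too. In Pcp4l1 the last segment held 80.3% of the reads and the rest stood at -0.51 (-1.06 to 0.03). In Scrg1 1 segment held 84.5% and the rest stood at -1.52 (-2.47 to -0.56). Oard1 kept -1.39 (-1.92 to -0.86), Selenow -1.31 (-1.47 to -1.14) and Mrpl42 -1.25 (-1.68 to -0.82) when the most-read segment was left out. Tcim, Mt1 and Hist1h2bq have 1 segment. Without its most-read segment, Metrn of the high end stood at 1.95 ± 0.23.

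Selenow encodes selenoprotein W, in which a TGA codon is read as selenocysteine instead of as a stop. Such recoding needs a hairpin in the 3′ UTR and a dedicated elongation factor, and ribosomes that fail to recode terminate at the TGA. An in-frame TGA ahead of the annotated stop codon was found in 18 of the 19 selenoprotein CDSs with at least 100 reads. The 30 nt around it are shown for the genes whose reads could be compared most closely before and after the codon, 5′ to 3′, with the TGA in capitals, taken from GENCODE M21 transcripts on GRCm38 (mm10).
Selenow: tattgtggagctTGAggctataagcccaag
Selenot: atttgtgtatccTGAgggtaccggcgggtg
Selenof: gaagtctgcggaTGAaaattggggaggttc
Selenom: acctgtggaggaTGAcagttgaatcgccta
Gpx4: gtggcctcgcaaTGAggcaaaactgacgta
The Selenow stretch lies on the minus strand within chr7:15920449-15922256 and crosses an intron, and its TGA is codon 13 of 89. In Selenot the stretch lies on the plus strand within chr3:58576869-58585255, also across an intron, with the TGA at codon 49 of 196. Those of Selenof (chr3:144590633-144590662, codon 93 of 163), Selenom (chr11:3516261-3516290, codon 48 of 146) and Gpx4 (chr10:80054725-80054754, codon 129 of 254) each lie in 1 exon on the plus strand.

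In Selenow, the 5′ UTR and the first coding segment had more reads in Chx, and every coding segment from the TGA on had fewer. The first coding segment, of 29 nt and ahead of the TGA, had 61 Chx and 32 WT reads. The segment with the TGA had 14 and 65, and the 3 segments after it had 150, 276 and 221 in Chx and 496, 701 and 317 in WT. Its 5′ UTR, of 122 nt, had 2800 Chx and 1295 WT reads. The ratio of reads after the TGA to reads before it was therefore 10.6 in Chx and 47.3 in WT, a log2 odds ratio of -2.15 ± 0.32. The reads before the TGA come from a segment close to the read length and are few. Short CDSs that hold no selenocysteine codon could show a like order, as in Mt2, where the first segment of 28 nt stood at 1.5 and the middle at -1.31, and in Mt3, with 1.93 in the first 31 nt and -0.77 in the middle. Whether the Selenow split is tied to the TGA was not tested.

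**Figure D3:**
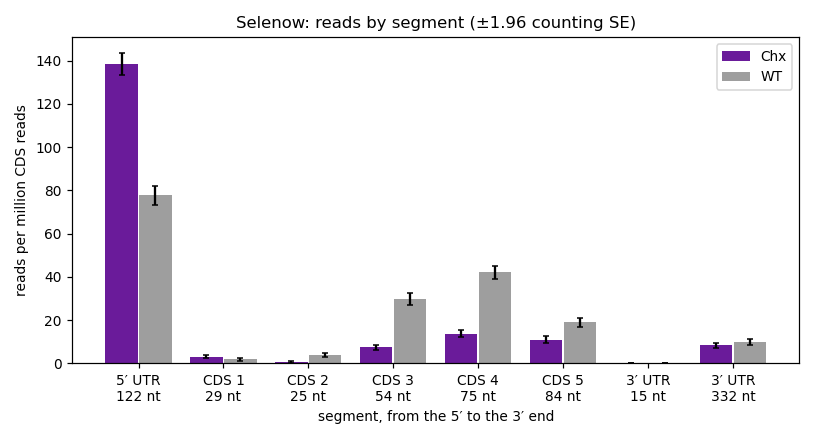
RPM (y axis) in each Selenow segment from the 5′ to the 3′ end, Chx in purple and WT in grey; error bars are 95% counting intervals. Chx is higher in the 5′ UTR (2800 reads against 1295) and lower in CDS segments 2 to 5, the segments from the TGA codon on.

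Other selenoproteins varied, with smaller splits than Selenow. For 8 genes, Selenow included, both sides of the TGA could be counted in whole segments, and the median log2 odds ratio was -0.27, with 2 above 0. After Selenow the lowest were Gpx3, with 16 and 12 reads before and 5 and 12 after the TGA in Chx and WT (-1.59 ± 0.92), and Selenoh, with 184 and 178 before and 31 and 44 after (-0.55 ± 0.37), both from few reads and with counting intervals that span 0. Selenot had 1607 and 1243 reads before its TGA and 1009 and 899 after it in Chx and WT (-0.20 ± 0.09). Selenof had 2780 and 2319 before and 245 and 259 after (-0.34 ± 0.13), Selenom 612 and 686 before and 281 and 331 after (-0.07 ± 0.14), and Gpx4 375 and 554 before and 405 and 541 after (0.15 ± 0.14). Gpx4 shares 61.1% and Selenot 22.9% of its words with other genes. Within each library, reads per nucleotide were lower after the TGA than before it in Selenof (0.118 of the level before it in Chx, 0.149 in WT), Selenot (0.253 and 0.291) and Selenom (0.217 and 0.228). Gpx4 (1.39 in Chx and 1.25 in WT) and Selenow (1.44 and 6.44) had more reads per nucleotide after the TGA than before it. Reads per nucleotide were also lower after the TGA in Gpx3 (0.062 in Chx and 0.198 in WT), Selenoh (0.173 and 0.255) and Selenon (0.192 and 0.164), from fewer reads. A drop across the TGA was thus seen in all of the 8 genes but Gpx4 and Selenow, and there in both libraries.

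Over whole CDSs, the 19 selenoproteins had a median of -0.07, with 8 above 0 against 54.9% of all genes. Next to Selenow (722 Chx and 1611 WT reads, -1.44 ± 0.06), the lowest were Selenom, with 951 and 1139 (-0.54 ± 0.06), Selenoh, with 370 and 417 (-0.45 ± 0.10), and Selenok, with 2780 and 3102 (-0.44 ± 0.04). Selenok shares 89.3% of its words with other genes. Msrb1 (131 and 125 reads, -0.21 ± 0.18), Gpx1 (1073 and 1038, -0.23 ± 0.06), Gpx3 (61 and 62, -0.30 ± 0.26), Gpx4 (2222 and 2037, -0.15 ± 0.04), Selenof (-0.07), Sephs2 (-0.07) and Txnrd3 (-0.02) also lay below 0. The thioredoxin reductase gene Txnrd1 had the highest value, with 2094 Chx and 1363 WT reads (0.34 ± 0.05), followed by Selenoo at 0.29, Txnrd2 at 0.17, Selenon at 0.15, Selenop at 0.13, Selenos at 0.12, Selenoi at 0.07 and Selenot at 0.01. In Txnrd1, Txnrd2 and Txnrd3 the TGA lies just ahead of the annotated stop codon, so nearly the whole CDS lies ahead of it.

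Within CDSs, the first segment held a larger share of reads in Chx and the last segment a smaller one. Over genes with at least 3 CDS segments (the coding parts of exons), the first segment held 14.4% of CDS reads in Chx and 12.8% in WT, the middle segments 74.4% in each, and the last segment 11.2% in Chx and 12.8% in WT. Per gene, the log2 odds ratio of first-segment reads to the other CDS reads had a median of 0.27 (0.25 to 0.28) over 8171 genes, and 67.9% were above 0. At 1.5-fold, 2458 first segments were higher in Chx (30.1%) and 529 lower (6.47%). For the last segment the median was -0.35 (-0.36 to -0.33) over 8733 genes with 73% below 0, 3095 lower in Chx at 1.5-fold (35.4%) and 468 higher (5.36%). The middle segments stood at 0.03 over 9625 genes, 47.1% of them below 0, with 1247 higher (13%) and 982 lower (10.2%).

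Both differences were larger in short than in long segments. First segments of 31 to 45 nt had a median of 0.80 over 503 genes, and the value declined through 0.43 at 61 to 90 nt and 0.21 at 121 to 180 nt to 0.02 at over 600 nt. Shorter first segments were not higher, with 0.70 over the 120 of 16 to 30 nt and 0.30 (-5.81 to 1.32) over the 17 of up to 15 nt. Last segments of up to 15 nt had a median of -2.88 over 69 genes, those of 31 to 45 nt -1.15 over 281 and those of 121 to 180 nt -0.38 over 2210, while last segments of over 600 nt stood at 0.04. Internal segments of matching length did not show it. Those of up to 60 nt had a median of -0.02 (-0.04 to 0.01) over 4410 segments, beside 0.71 (0.63 to 0.79) over 1237 first and -1.16 (-1.22 to -1.06) over 939 last segments of that length. The difference was thus found in short segments at the ends and not in short segments between them. Whole segments were also grouped by which of 3 equal parts of the CDS held their midpoint. The medians were then 0.04 for the first group, 0.05 for the middle group and -0.08 for the last group. Those of the first and last groups were smaller in size than those of first and last segments. The first group did not stand above the middle group.

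**Figure D4:**
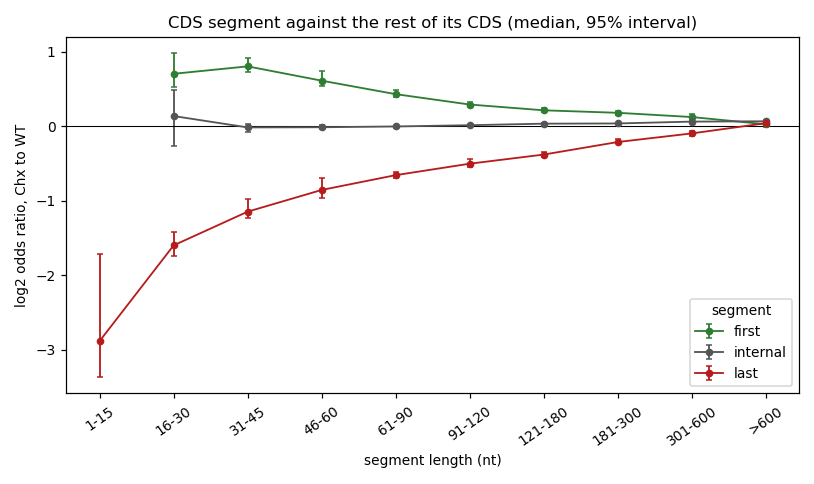
Median log2 odds ratio, Chx to WT, of reads in a CDS segment against the rest of its CDS (y axis) by segment length in nt (x axis) for first (green), internal (grey) and last (red) segments; bars are 95% intervals over genes or segments, and length classes with under 20 members are left out. First segments rise from 0.70 at 16 to 30 nt to 0.80 at 31 to 45 nt and then fall to 0.02 at over 600 nt. Last segments run from -2.88 to 0.04, and internal segments stay near 0.

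Internal segments carried a shallow gradient that mostly ran the other way, lower at 101 to 200 nt from the start codon than farther on. Those of at most 150 nt had a median of -0.09 where their midpoint lay 101 to 200 nt from the start codon and of 0.07 beyond 1600 nt. The bin nearest the start codon, within 100 nt, was not low, with -0.0005 (-0.03 to 0.03) over 1534 segments. Counted from the stop codon, the median was -0.07 within 100 nt, 0.07 at 201 to 400 nt and -0.04 beyond 1600 nt. The differences between these bins are small beside those of the end segments. Their intervals over segments are narrow, for example -0.11 to -0.07 over 4070 segments at 101 to 200 nt from the start codon.

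The deposited tables assigned each read by its 5′ end, with an offset of 0. A ribosome with a start codon in its P site therefore counts in the 5′ UTR, and one at a stop codon counts upstream of it. A read that starts in a first or middle segment under 25 nt, shorter than the shortest read kept, must cross an exon junction, whereas one that starts in a short last segment can run on into the 3′ UTR. Of 994 such first segments 842 were at 0 in both libraries and 23 had 30 reads or more, and of 537 such last segments 183 were at 0 and 99 had 30 or more, so values of single genes with very short ends come from few segments that drew reads.

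The most extreme values of single genes included such short ends. For 6 genes whose first or last segment was among the extremes and at most 27 nt long, the 30 coding nt at that end are shown, 5′ to 3′ from GENCODE M21 on GRCm38, with the first or last coding segment in capitals.
Srp14, first segment: ATGGTGTTGCTCGAGAGCGAGCAGttcctg
Nsf, first segment: ATGGCGGGCCGGactatgcaagctgcgaga
Ndufs7, first segment: ATGGCGGCGCTGGCGGctcctggcctgctc
Pld3, first segment: ATGAAGCCCAAACTGATGTACCAGGAGctg
Alyref, last segment: gcttacaatgcaaggATGGACACCAGCTAA
Psmb4, last segment: atcgctcacatgatcagTGGCTTTGAATGA
Each of these stretches crosses 1 intron. They lie within chr2:118479445-118479614 (Srp14, minus strand), chr11:103930798-103953981 (Nsf, minus), chr10:80249476-80252410 (Ndufs7, plus), chr7:27541986-27542115 (Pld3, minus), chr11:120594853-120594994 (Alyref, minus) and chr3:94884428-94884687 (Psmb4, minus).

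Srp14, a subunit of the signal recognition particle, had 1433 Chx and 4 WT reads in its first segment of 24 nt, a log2 odds ratio of 8.01 ± 0.68. Its other segments had 1829 and 1476 reads, a level ratio of 0.03 ± 0.05, so that the high CDS level of this gene (3262 Chx and 1480 WT reads, 0.86 ± 0.05) came from those 24 nt. The membrane fusion ATPase gene Nsf had 137 Chx and 0 WT reads in a first segment of 12 nt, at least 43.3-fold higher in Chx against a floor of 3 reads. The complex I gene Ndufs7 had 150 and 0 in 16 nt (at least 38.8-fold higher) and the nuclease gene Tatdn1 107 and 0 in 22 nt (at least 34.7-fold higher). Psap, a precursor of lysosomal saposins, had 1200 and 99 reads in a longer first segment of 40 nt (3.62 ± 0.15).

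The reverse also occurred at this end. The deubiquitinase gene Usp14 had 0 Chx and 108 WT reads in a first segment of 16 nt, at least 38.6-fold lower in Chx, and Gm38393, whose words all occur in other genes, had 0 and 107 in 14 nt (at least 28.1-fold lower). The phospholipase family gene Pld3 had 24 and 318 in 27 nt (-4.20 ± 0.30), the clathrin adaptor gene Ap2m1, with 98.0% of its words shared, had 39 and 129 in 74 nt (-2.21 ± 0.26) and the kinase gene Mapk10 had 40 and 125 in 66 nt (-1.66 ± 0.26). Extremes in both directions thus included segments too short to hold a whole read.

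Last segments gave extremes mostly in 1 direction. The mRNA export factor gene Alyref had 8 Chx and 211 WT reads in its last 15 nt (-4.82 ± 0.51). The lipid peroxidase gene Gpx4, with 61.1% of its words shared, had 16 and 198 in 33 nt (-3.85 ± 0.37). Trim44 had 25 and 183 in 28 nt (-3.39 ± 0.31), the proteasome gene Psmb4 had 114 and 754 in 13 nt (-3.19 ± 0.15) and Casc4 had 38 and 166 in 71 nt (-3.08 ± 0.27). Ratios at the high end were smaller in size. Among them, Taco1 had 182 and 67 reads in 201 nt (1.38 ± 0.23), Zfp84 368 and 233 in 1433 nt (1.36 ± 0.29), Dynlt1c, whose words all occur in other genes, 214 and 65 in 71 nt (1.24 ± 0.23) and Tuba1b, whose words are 98.0% shared, 9086 and 5323 in 981 nt (1.19 ± 0.03).

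For the middle segments the extremes mirrored the ends of the same CDSs. Srp14 was lowest, with 1653 Chx and 1196 WT reads (-2.03 ± 0.11), followed by Tra2b (-1.95), the endophilin gene Sh3gl2 (-1.76), Necab2 (-1.65) and Pip5k1c (-1.60). Nrip3 was highest, with 876 and 762 (2.82 ± 0.37), followed by Mpc1 (2.61), Gpx4 (2.61), Dnal1 (2.43) and Snx6 (2.37). Srp14 is thus low here by its first segment and Gpx4 high by its last.

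Gene classes differed in their first-segment medians. The median of the first segment was 0.57 over 36 ribosomal protein genes, 0.55 over 15 selenoproteins, 0.50 over 20 genes of entry into the secretory pathway and 0.49 over 61 OXPHOS subunits, of which 52 were above 0 against 67.9% of all genes. It was 0.42 over 50 translation factors and 0.42 over 26 SR and hnRNP splicing regulators. By contrast it was -0.16 over 33 sodium, calcium and HCN channels, -0.14 over 15 glycolytic enzymes, -0.09 over 32 chromatin regulators, -0.04 over 34 protocadherins, whose median first segment is 2418 nt long, and -0.03 over 8 tubulins. The intervals of these 5 low medians all span 0, for example -0.28 to 0.28 for the channels. Since first segments differ in length between classes, each gene was also set against genes whose first segment falls in the same length class. On that scale ribosomal proteins stood 0.18 above, OXPHOS subunits 0.17 above and SR and hnRNP regulators 0.23 above, whereas sodium, calcium and HCN channels stood at -0.37, glycolytic enzymes at -0.36, chromatin regulators at -0.26, protocadherins at -0.06 and tubulins at -0.64.

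For the last segment, the median was -0.59 over 64 OXPHOS subunits, 58 of them below 0 against 73% of all genes, -0.59 over 32 actin cytoskeleton genes, -0.50 over 64 chaperones and -0.48 over 36 genes of the vacuolar ATPase and lysosome, 34 of them below 0. It was -0.01 over 25 ionotropic glutamate and GABA-A receptors, 0.05 over 34 protocadherins and 0.35 over 15 tubulins, 3 of which were below 0. Against last segments of the same length class OXPHOS subunits stood at -0.04, genes of the vacuolar ATPase and lysosome at -0.04, chaperones at -0.11, actin cytoskeleton genes at -0.16, ionotropic receptors at 0.20, protocadherins at 0.27 and tubulins at 0.43. The tubulin genes have a median last segment of 981 nt, and 11 of the 15 share more than 10% of their words. All protocadherins share more than 10% of their words with another gene. The first- and last-segment values of the 34 may therefore rest in part on the same reads and are not independent. IEGs, where 10 and 11 genes could be read, stood at 0.07 (-0.14 to 0.76) for the first segment, with 8 above 0, and at -0.12 (-0.38 to -0.00221) for the last, with 10 below 0. IEGs with fewer than 3 CDS segments are not among them.

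Outside the CDS the libraries differed more than within it. In 5′ UTRs the log2 odds ratio against CDS reads had a median of 0.67 (0.65 to 0.69) over 9892 genes, 81.4% of them above 0, with 5400 at least 1.5-fold higher in Chx (54.6%) and 443 lower (4.48%). The value fell with UTR length from 0.92 at 31 to 60 nt and 0.81 at 101 to 300 nt to 0.04 (-0.04 to 0.13) over the 209 UTRs of 1001 to 3000 nt. Both parts of the UTR showed it. The piece in the exon of the start codon had a median of 0.64 over 9210 genes, and pieces in exons farther upstream had 0.69 over 3115. At matched length the upstream pieces could be higher, as at 61 to 120 nt, with 1.02 (0.89 to 1.14) over 347 genes against 0.71 (0.66 to 0.77) over 1898 for the adjoining piece.

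By class, the 5′ UTR ratio was 1.00 over 15 selenoproteins, 0.98 over 31 actin cytoskeleton genes, 0.96 over 31 SR and hnRNP regulators, 0.90 over 71 chaperones and 0.88 over 76 mitochondrial ribosomal proteins. It was near 0 or low over 53 protocadherins (0.01), 11 tubulins (-0.10), 24 ionotropic receptors (0.10), 53 axon guidance genes (0.24), 51 potassium channels (0.25) and 61 histones (0.25). Against UTRs of the same length class, protocadherins stood at -0.75, tubulins at -0.90 and ionotropic receptors at -0.54. These classes were thus low among UTRs of like length as well. Chaperones stood 0.22 above their length classes and actin cytoskeleton genes 0.28 above, whereas SR and hnRNP regulators stood only 0.094 and mitochondrial ribosomal proteins 0.0521 above.

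Among single genes whose 5′ UTR overlaps no CDS, the recycling endosome gene Rab11fip5 had 192 Chx and 7 WT reads in its 5′ UTR (4.38 ± 0.54) beside 1593 and 1292 CDS reads. Dpf1, a subunit gene of a neuronal chromatin remodeller, had 118 and 3 (4.22, counting interval 2.67 to 5.76), the AMPA receptor auxiliary gene Frrs1l 108 and 4 (3.76 ± 0.70), Rhbdd2 183 and 5 (3.70 ± 0.64) and Tm2d1 97 and 4 (3.69 ± 0.71). At the low end, the pseudouridine synthase gene Trub2 had 54 and 181 (-1.91 ± 0.27), the synaptic vesicle gene Syp 53 and 143 (-1.76 ± 0.23), Rnf167 211 and 278 (-1.61 ± 0.25), the iron-sulphur assembly gene Isca1 59 and 120 (-1.50 ± 0.25) and the receptor gene Gpr61 31 and 77 (-1.48 ± 0.36). The high extremes thus rest on a handful of WT reads, and the low extremes on larger counts in both libraries.

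In 3′ UTRs the ratio pointed the other way. Its median was -0.97 (-1.02 to -0.93) over 4394 genes, 84.9% of them below 0, with 2826 at least 1.5-fold lower in Chx (64.3%) and 175 higher (3.98%). The size depended on the read minimum, which applies to the reads of both libraries together. The median was -0.59, with 728 of 1439 genes lower, at 50 reads in the UTR, and -1.19 over 9665 genes without a minimum. Short 3′ UTRs were lowest, with -3.15 over the 48 of 61 to 100 nt, -1.78 over the 350 of 101 to 300 nt and -0.79 over the 989 of more than 3000 nt. The value also followed the number of CDS reads, from -0.25 over 311 genes with 100 to 300 reads to -1.90 over 635 genes with more than 10000. The piece that adjoins the stop codon stood at -1.04 over 3990 genes, and 3′ UTR exons beyond it at -0.25 over 564 genes, or -0.91 over the 139 whose 3′ UTR overlaps no CDS.

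**Figure D5:**
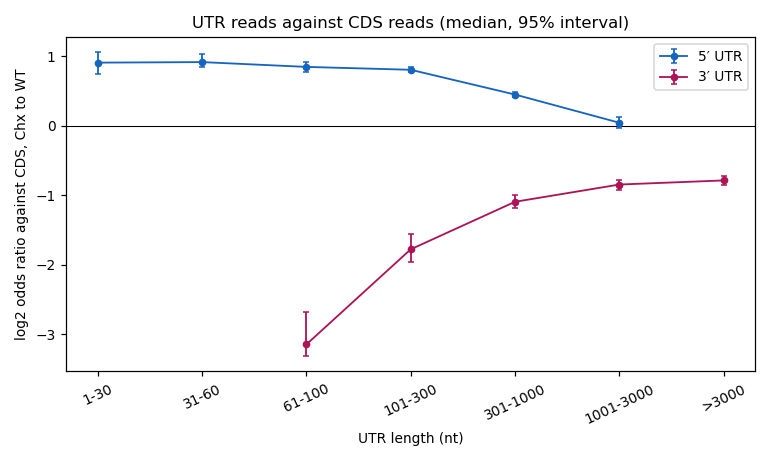
Median log2 odds ratio of UTR reads against CDS reads, Chx to WT (y axis), by UTR length in nt (x axis) for 5′ UTRs (blue) and 3′ UTRs (magenta); bars are 95% intervals over genes, and length classes with under 20 genes are left out. 5′ UTRs lie above 0 up to 1000 nt and at 0.04 from 1001 to 3000 nt, and 3′ UTRs lie below 0 at every length, lowest where they are short.

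The 3′ UTR ratio differed widely between classes. Tubulins stood at -3.53 over 7 genes, glycolytic enzymes at -2.73 over 12, ribosomal proteins at -2.33 over 37 and OXPHOS subunits at -2.33 over 67. Of the 67, 66 were below 0 against 84.9% of all genes. Against 3′ UTRs of the same length class tubulins stood at -2.32, glycolytic enzymes at -1.56, OXPHOS subunits at -0.40 and ribosomal proteins at -0.12. IEGs stood at -0.51 over 18 and mitochondrial ribosomal proteins at -0.69 over 44, or 0.49 and 0.34 above 3′ UTRs of the same length class. Tubb2b, a neuronal beta-tubulin gene, had 4 Chx and 425 WT reads in its 3′ UTR (-6.88 ± 0.68) beside 66305 and 53134 CDS reads. Ndn, an imprinted gene of postmitotic neurons, had 4 and 198 (-5.66 ± 0.69), the somatostatin gene Sst 4 and 115 (-4.95 ± 0.69), Tubb5 7 and 173 (-4.93 ± 0.54) and Atp6ap2, an accessory gene of the vacuolar ATPase, 18 and 352 (-4.46 ± 0.34). In each of these the 3′ UTR was nearly free of reads in Chx and held over 100 in WT.

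Few 3′ UTRs went against this. Selenow, with 166 Chx and 163 WT reads, had the highest ratio (1.18 ± 0.17), beside its lower CDS count in Chx. Szrd1 had 61 and 46 (0.97 ± 0.30), Faap20 69 and 36 (0.94 ± 0.32), the sulphur carrier gene Urm1 114 and 77 (0.82 ± 0.23) and the start codon selection factor gene Eif1 711 and 625 (0.78 ± 0.10), whose CDS had 764 and 1151 reads and shares 98.7% of its words. All but Faap20 also had a CDS ratio at or below -0.53.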

How the data were processed

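Ribosome profiling of mouse primary cortical neurons was compared between the Chx and the WT library. Groups were taken from the treatment label, with which the description labels (input fractions of dep neurons, cytosol for Chx and psd for WT) conflict. The third library (harringtonine) was not used here. According to the study, adapters and molecular identifiers were removed and ribosomal RNA reads filtered. Per the file headers, the authors counted reads of 25 to 100 nt by their 5′ end at offset 0 with Plastid over exon segments of an mm10 annotation, and the deposited values are raw read counts. The study names TopHat as the aligner for its ORF-RATER analysis of these libraries. The alignment files counted are named as having duplicates removed, and whether they are the TopHat alignments is not stated.

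Of 142446 transcript identifiers, 141117 matched GENCODE M21 with their version and 141536 with or without it. The longest transcript with all 3 regions was kept per gene. Log2 ratios used a pseudocount of 0.5 and CDS totals as library size, and their SE is that of 2 Poisson counts. Segments and UTRs were compared by log2 odds ratios against the other CDS reads, or the CDS reads. Part and rest each needed at least 10 reads summed over both libraries, so a part without reads in 1 library could enter. Segments were compared only in genes with at least 3 CDS segments. Intervals of medians are distribution-free 95% intervals over genes. No test was made, with 1 library per group. Shared sequence is the percent of a CDS's 25-nt words found in a transcript of another gene, known for 11255 of the 11312 genes. The gene classes, members and lists were chosen with earlier results of these data known. Genes named are the 8 highest and 8 lowest CDS ratios with at least 200 reads, the highest and lowest of classes, all members of 3 classes, and the 5 highest and 5 lowest for each CDS part and UTR with at least 100 reads, and 1 gene that this rule names is not reported here. Where genes past 1.5-fold in a class (Ephb3, Epha8, Hes5, Id3, mt-Atp8) or selected 5′ UTR values of IEGs are given, they were chosen after their values were seen. The calculations were tested on simulated data with known changes. Python 3.11.15 with NumPy 2.4.6, pandas 2.3.3 and SciPy 1.17.1 was used. Alternatives covered scaling, read minimums, pseudocount, transcript choice, shared sequence and the most-read genes. Another grouped whole segments by which of 3 equal parts of the CDS held their midpoint.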

Additional observations from a re-analysis of the deposited data

How the results depend on the processing

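No paired analysis was possible because each group has 1 library, and for the same reason no library could be left out. For CDS levels, the median over genes was 0.011 with median-of-ratios scaling, 0.0697 with the header totals, 0.0232 without a read minimum and 0.0456 over genes with under 10% shared words. Genes higher and lower in Chx at 1.5-fold numbered 51 and 43 at 1000 or more CDS reads, 1518 and 1555 without a minimum, and 22 and 13 at 2-fold, and 98 were lower with under 10% shared words. Class medians with an interval off 0 kept their sign under every setting that gave them a value. With under 10% shared words, ribosomal proteins and protocadherins, which have 1 and 0 such genes, had none. The medians of 9 other classes, whose intervals spanned 0, changed sign under at least 1 setting. Class medians that moved outside their interval were those of OXPHOS subunits (-0.038) and histones (-0.0423) with under 10% shared words, and protocadherins (0.19), glycolytic enzymes (0.12) and SR and hnRNP regulators (-0.17) with the header totals. With whole segments grouped by which of 3 equal parts of the CDS held their midpoint, the first, middle and last medians were 0.039, 0.0497 and -0.0818. At 1.5-fold, 1076 first groups were higher, 807 and 538 middle groups were higher and lower, and 1235 last groups were lower. The first segment stood at 0.25 (299 lower) with 50 reads over both libraries in part and rest. It stood at 0.17 (1069 higher and 297 lower) with at least 100 nt and 0.23 with a pseudocount of 5. The last segment stood at -0.30 (219 higher, 1963 lower) with 50 reads, -0.37 without a minimum and -0.24 (1698 lower) with at least 100 nt, and 304 were higher with a pseudocount of 5. Settings chosen after seeing the data gave 0.22 and 0.71 for first and -0.30 and -1.16 for last segments over and up to 60 nt. The 5′ UTR ratio was 0.64 (222 lower) with 50 reads, 0.56 with a pseudocount of 5, 0.70 without CDS overlap and, added after seeing the data, 0.64 in the adjoining piece. The 3′ UTR ratio was -0.59 (37 higher, 728 lower) with 50 reads, -1.19 (1013 and 6336) without a minimum, -0.79 (96 higher) with a pseudocount of 5, -1.14 on the most-read transcript, -1.18 without CDS overlap and, added after seeing the data, -1.04 and -0.25 in the adjoining and other pieces. Among single genes, Tbca (-0.23), Wars (-0.0458) and Bag1 (0.0917) changed sign on the most-read transcript. Mapk10 (0.12) and Nsf (-0.0322) for the first and Tra2b (0.47) and Pip5k1c (0.12) for the middle group did so with segments grouped by their midpoint. The cause was not tested. Counts set the limit for segments and 3′ UTRs with few reads, and with 1 library per group no difference here has a replicate check.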
